A study of Mus musculus with 2 samples.

Results

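The regions described here are the 500 distal stretches of the mouse genome that held the most accessible DNA in young haematopoietic stem cells (HSCs). The autosomes of the mm10 build were divided into 123148 non-overlapping bins of 20 kb. Bins with the start of a protein-coding transcript inside them or within 5 kb were left out, which kept 93646 distal bins. The 500 members were chosen by their fragment count in the 10-week library alone. They held between 2262 and 143563 fragments in that library, with a median of 2808. The 5 members just inside the limit held 2262 to 2264 fragments, and the 5 bins just outside it held 2249 to 2256.

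The study profiled bone marrow HSCs of C57BL/6 mice by single-cell ATAC-seq (scATAC-seq), in which a transposase cuts open chromatin and each cell's DNA fragments carry a barcode. One library came from 10-week-old mice (young HSC) and 1 from 20-month-old mice (aged HSC). Both were sorted as cells with Sca-1, c-kit and CD150 on their surface that lacked lineage markers (Lin), the IL-7 receptor (IL-7- in the labels), CD34, CD48 and Flt3, and the mice were female according to the study's methods. How many mice gave each library is not given in the sources used here. With 1 library per age, age and library cannot be told apart, and no difference between ages could be tested. Barcodes called as cells with 3000 to 20000 fragments in peaks were kept, 4887 of 5028 in the young and 3405 of 3694 in the aged library. They gave 49049364 young and 37843997 aged autosomal fragments. The libraries shared 26 kept barcodes. Shares are given below as fragments per 1000000 autosomal fragments (FPM). Fragments within 1 kb of the starts of 8 HSC genes summed to 103 FPM (young) and 99.3 FPM (aged). The sums were 78.04 and 67.7 over 4 megakaryocyte genes and 29.97 and 27.3 over 4 erythroid genes. They were 13.8 and 14.3 over 4 B cell genes, 3.55 and 3.49 over 4 granulocyte and monocyte genes, and 2.81 and 1.14 over 4 T cell genes. Per gene, the median was 11.2 FPM (young) and 11.3 FPM (aged) in the HSC list. It was higher in the megakaryocyte list, at 20.9 and 17.2, and lower in the other lists, up to 6.44 and 5.72 in the erythroid list. No marker of any list was at 0. Mecom, a transcription factor used as an HSC marker, was the lowest HSC gene, with 0.326 and 0.317 FPM. Only 1 start of each gene was counted, so any other start, at Mecom too, was not covered.

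Most open chromatin far from gene starts consists of enhancers and other regulatory elements, short stretches where transcription factors displace nucleosomes. In HSCs such elements are bound by factors of the RUNX, ETS, GATA and MEIS families, and clusters of them lie around genes that set stem cell identity. A dense bin can also arise where many copies of a repeated gene, such as the genes for ribosomal RNA, are represented by few copies in the assembled genome.

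Sequences at the heart of 6 members are shown first, as examples from the densest and the most age-shifted members. Each is the 300-bp window with the most 10-week fragments in its bin, on the plus strand of mm10 and as in RefSeq's GRCm38.p6, and it was taken only where the window held no annotated exon and no masked repeat. Capitals mark matches to the motifs listed further on. The first pair comes from the 15 densest members. It lies at chr8:84203501-84203800, in the bin that holds the Mir23a, Mir27a and Mir24-2 cluster, and at chr12:86823961-86824260, 54.8 kb (bin centre to gene start) from Irf2bpl.
Mir23a bin: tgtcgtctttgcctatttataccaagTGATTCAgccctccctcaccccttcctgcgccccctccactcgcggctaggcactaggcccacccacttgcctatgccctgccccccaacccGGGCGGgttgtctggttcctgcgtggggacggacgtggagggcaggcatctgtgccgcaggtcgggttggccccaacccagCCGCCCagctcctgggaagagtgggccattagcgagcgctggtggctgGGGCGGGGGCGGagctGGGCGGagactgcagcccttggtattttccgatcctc
Irf2bpl bin: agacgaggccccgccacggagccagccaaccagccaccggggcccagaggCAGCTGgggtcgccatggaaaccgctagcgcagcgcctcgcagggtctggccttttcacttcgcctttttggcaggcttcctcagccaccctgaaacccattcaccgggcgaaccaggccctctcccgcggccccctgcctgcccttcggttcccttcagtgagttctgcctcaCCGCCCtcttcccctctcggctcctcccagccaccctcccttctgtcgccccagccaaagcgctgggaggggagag
The middle pair comes from the 10 members with the highest aged to young ratio. It lies at chr5:146261021-146261320, in an intron of Cdk8, and at chr16:57391381-57391680, within Cmss1 and Filip1l. From general knowledge both stretches read as sequence of the large ribosomal RNA, but no reference for that RNA was matched here.
Cdk8 bin: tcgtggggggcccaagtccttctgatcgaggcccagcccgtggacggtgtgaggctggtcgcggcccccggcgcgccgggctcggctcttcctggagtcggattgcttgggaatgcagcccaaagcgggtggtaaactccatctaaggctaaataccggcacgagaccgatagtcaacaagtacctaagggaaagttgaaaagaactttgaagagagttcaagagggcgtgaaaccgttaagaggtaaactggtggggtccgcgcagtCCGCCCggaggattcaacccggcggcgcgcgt
Filip1l bin: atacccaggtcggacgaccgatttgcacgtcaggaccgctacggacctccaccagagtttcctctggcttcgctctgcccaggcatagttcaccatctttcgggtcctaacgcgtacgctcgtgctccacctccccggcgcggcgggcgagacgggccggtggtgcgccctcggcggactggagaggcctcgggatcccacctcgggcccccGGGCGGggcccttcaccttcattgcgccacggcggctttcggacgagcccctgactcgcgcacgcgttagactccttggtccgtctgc
The last pair comes from the 10 members with the lowest ratio. It lies at chr19:46863561-46863860, within Cnnm2, and at chr17:31905841-31906140, in the bin nearest to Sik1.
Cnnm2 bin: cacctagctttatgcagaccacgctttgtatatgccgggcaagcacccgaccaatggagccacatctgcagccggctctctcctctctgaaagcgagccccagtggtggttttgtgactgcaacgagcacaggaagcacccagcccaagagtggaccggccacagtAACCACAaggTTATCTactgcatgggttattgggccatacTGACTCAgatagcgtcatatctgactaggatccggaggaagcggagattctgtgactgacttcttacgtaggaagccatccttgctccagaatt
Sik1 bin: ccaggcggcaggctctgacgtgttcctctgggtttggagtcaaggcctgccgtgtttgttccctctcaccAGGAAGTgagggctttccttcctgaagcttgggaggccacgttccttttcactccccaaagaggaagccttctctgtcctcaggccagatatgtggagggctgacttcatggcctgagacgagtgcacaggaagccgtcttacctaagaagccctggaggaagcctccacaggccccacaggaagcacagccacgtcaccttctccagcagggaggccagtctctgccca
The Cnnm2 stretch holds the RUNX, GATA and AP-1 letters from bases 167, 177 and 207, and the Sik1 stretch a single ETS match, whereas the other 4 stretches each hold the KLF/SP letters.

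The members together held 3.35% (95% exact binomial interval 3.345 to 3.356) of all young autosomal fragments and 3.29% (3.283 to 3.294) of the aged ones. These intervals, like those of single ratios below, cover counting error only. One bin, chr17:39840001-39860000, accounted for 0.293% of the young and 0.364% of the aged fragments, or 143563 and 137798 fragments. It holds the annotated genes Gm26917, Gm42418, AY036118 and CT010467.1, of which GENCODE types at least one as a ribosomal RNA gene. Without it, the members held 3.06% of the young and 2.92% of the aged fragments. The next member held 8871 young fragments.

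The 15 densest members were a mixed group. After the chr17 bin came chr11:109000001-109020000, nearest to the Wnt feedback inhibitor Axin2 at 86.8 kb, with 181 FPM in the young library and 229 FPM in aged HSCs. The third was chr19:5840001-5860000, which holds the start of Neat1, the long noncoding RNA that builds paraspeckles. It had 176 FPM (young) and 174 FPM (aged). Malat1, another abundant nuclear noncoding RNA, starts in the nearby member chr19:5800001-5820000, which ranked 17 with 101 and 97.2 FPM. For both bins the interval of the age ratio included equality.

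The fourth member, chr8:84200001-84220000, holds the Mir23a, Mir27a and Mir24-2 genes and had 124 young and 110 aged FPM. The bin in the body of Ago2, which encodes the Argonaute protein that carries microRNAs, had 117 and 102. The bin in Smad3, a mediator of TGF-beta signalling, had 116 and 99.1. Both of these lay lower in the aged library by more than their counting error. The log2 ratio of aged to young share was -0.19 (95% interval -0.25 to -0.13) at Ago2 and -0.22 (-0.28 to -0.17) at Smad3.

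Among the remaining densest members, the bin nearest to Irf2bpl had 120 young and 122 aged FPM. A bin in Gse1 had 116 and 115, and a bin 143 kb from Haao had 112 and 110. Each of these 3 had an interval of the log2 ratio that included 0. The bin nearest to Gm21060 had 115 and 110, the bin 37.6 kb from Zbtb20, a transcriptional repressor, had 110 and 103, and the bin 263 kb from Nfe2l3 had 107 and 93.8. The bin that holds Trac, the constant segment of the T cell receptor alpha chain, had 110 and 95.2 (log2 ratio -0.21, -0.27 to -0.15). Only 3 of the 15 had an interval above 0 besides the chr17 bin of rank 1. These were the Axin2 bin, the bin 189 kb from Mkln1 with 114 and 125 FPM (log2 ratio 0.14, 0.08 to 0.19) and the bin nearest to Rpp21 with 107 and 130 (0.28, 0.22 to 0.34).

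**Figure D1:**
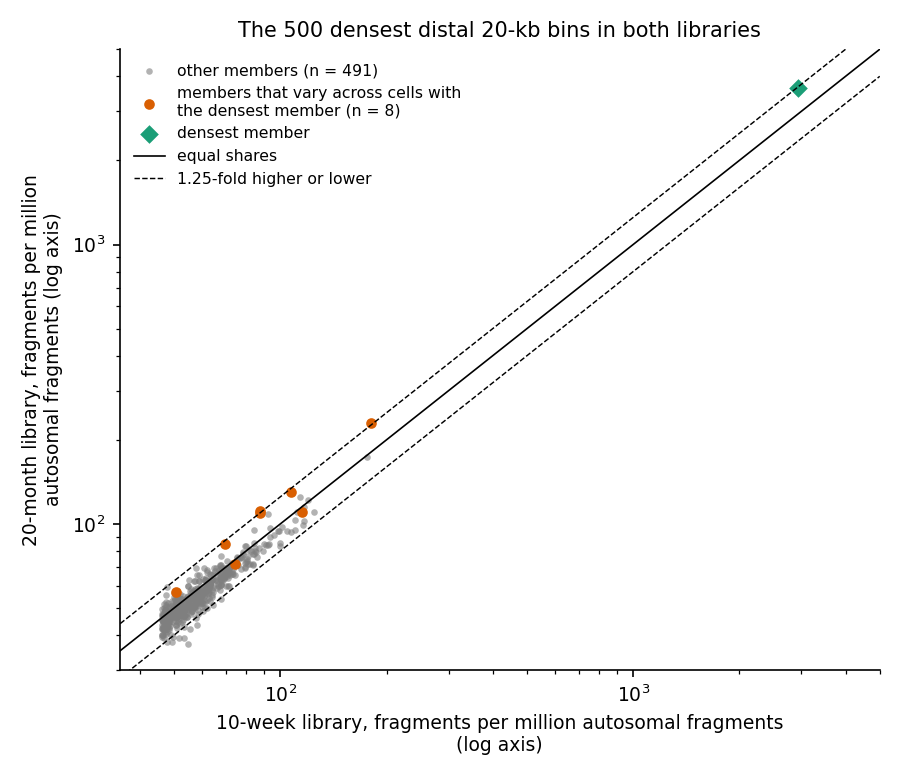
Each point is 1 of the 500 members, placed by its FPM in the 10-week library (x, log axis) and the 20-month library (y, log axis). The members follow the line of equal shares, the chr17 bin stands alone at 2927 and 3641 FPM, and 6 of the 8 orange members, defined further on by their variation across cells, lie above the line.

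Almost every dense bin of young HSCs was also dense in aged HSCs. Of the 500 members, 442 (88.4%) were among the 500 densest distal bins of the aged library, and all 500 were among its 1000 densest. The member that dropped furthest, in the body of Pik3ap1, went from rank 290 to rank 931. Of the 100 densest members, 86 were among the 100 densest aged bins. The 58 bins that took the place of lost members had young ranks of up to 2715, with a median of 621.

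Most members took a slightly smaller share of the aged library. The median log2 of aged over young share was -0.08 (95% order-statistic interval -0.08 to -0.06, n = 500 bins, which reflects the spread between bins and not between animals), and single members ranged from -0.56 to 0.35. The ratio was below 0 for 389 members and above 0 for 111 (22.2%). It was above 0 in 53.95% of the 22475 distal bins with a mean of at least 200 fragments over both libraries, in 43.8% of the 3009 with at least 1000, and in 36.6% of the 500 bins ranked directly after the members. The exact binomial interval of the single ratio lay below 0 for 238 members, above 0 for 48 and on both sides for 214. The corresponding counts were 863, 652 and 1494 of the 3009 bins, and 3817, 5854 and 12804 of the 22475 bins. Because the members were selected on the young count, a shift in this direction is a description and was not tested. Bins selected by the aged count instead had a median of -0.04, and bins selected by the mean of both shares had -0.06.

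Few members differed widely between the libraries. Only 2 members (0.4%) were at least 25% higher (a log2 ratio of 0.322) and 11 (2.2%) at least 20% lower (the same log2 size) in the aged library. This balance followed the choice of bins and the scale, with 14 higher and 3 lower among bins chosen by the 20-month count, and 5 higher and 6 lower when scaled to in-peak fragments. Among the 22475 distal bins with a mean of at least 200 fragments over both libraries, 15.5% were higher and 5.73% lower by these limits. Those bins hold fewer fragments, so counting error alone spreads their ratios further. Among the 3009 bins with a mean of at least 1000 fragments the shares were 4.79% and 2.53%. At 1.5-fold no member was past the limit in either direction, against 5.38% higher and 0.685% lower in the bins of at least 200. The median log2 ratio was 0.02 in the bins of at least 200 fragments and -0.05 in the 500 bins ranked directly after the members, of which 8 were higher and 18 lower by the same limits.

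The size of the shift depended on the scale. A trimmed mean of log ratios (TMM) over the distal bins moved every log2 ratio down by 0.138, so that the median of the bins of at least 200 fragments became -0.12 and that of the members -0.21, with 71 members at least 20% lower and 0 at least 25% higher. Because a scale moves all bins alike, the members' median lay 0.099 (log2) below that of the bins of at least 200 fragments on every scale, and 0.028 below that of the next 500 bins. With the median of the bins of at least 200 fragments set to 0, 409 members lay below 0 and 91 above it.

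**Figure D2:**
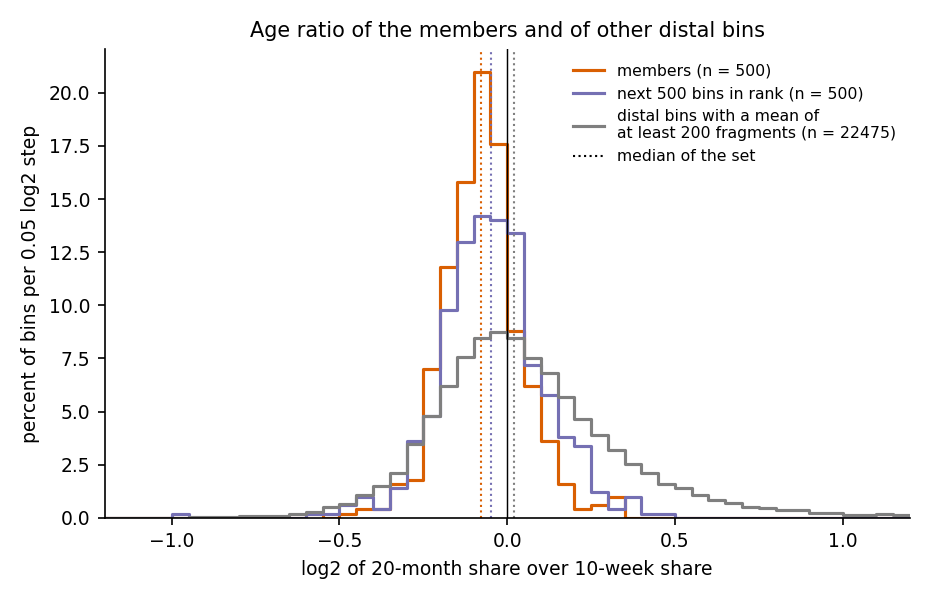
Percent of bins (y) in each 0.05-wide step of the log2 ratio of 20-month to 10-week share (x) for the members, the next 500 bins in rank and the distal bins with a mean of at least 200 fragments. Dotted lines mark the medians of -0.08, -0.05 and 0.02, and the members form the narrowest distribution.

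The members with the lowest aged to young ratios are named here by the gene that holds them or the nearest gene. Lowest was chr19:41320001-41340000, within Pik3ap1, an adaptor that links receptors to PI3-kinase. It had 54.6 young and 37.2 aged FPM (2680 and 1406 fragments, log2 ratio -0.56, -0.65 to -0.46). The bin within Nod2, a sensor of bacterial cell wall fragments, had 53.3 and 38.9 (log2 ratio -0.45, -0.55 to -0.36). The bin within Gramd1b, a cholesterol transport protein, had 57.9 and 43.4 (-0.41, -0.50 to -0.33), and it also holds the start of a RefSeq messenger RNA of that gene.

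The bin 15.4 kb from the phosphodiesterase gene Pde10a had 51.5 and 38.9 FPM (log2 ratio -0.40, -0.50 to -0.31). The bin within Cnnm2, nearest to the start of the nucleotidase gene Nt5c2, had 55.6 and 42.1 (-0.40, -0.49 to -0.31), and the bin within Arl15 had 49.2 and 37.8 (-0.38, -0.47 to -0.28). The other 4 of the 10 lowest, nearest to Mtdh, the kinase gene Sik1, Ninj2 and Sfi1, had log2 ratios from -0.34 to -0.33. The share of barcodes with a fragment, after each barcode was thinned to 5000 autosomal fragments, was lower as well. It is counted from the same fragments and is not separate evidence. It was 23.8% (young) and 16.8% (aged) at Pik3ap1 and 23.3% and 17.5% at Nod2.

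Of the 10 members with the highest ratios, 5 had most of their fragments in a narrow window. The bin in Cdk8, which encodes the kinase of the Mediator complex, had 87.7 young and 111 aged FPM (log2 ratio 0.35, 0.28 to 0.41), and the Axin2 bin had a log2 ratio of 0.34 (0.30 to 0.38). These were the 2 members at least 25% higher. In the Cdk8 bin 97.3% of the young fragments lay in a single 1-kb window, and in the Axin2 bin 90.8%. The corresponding value was 99.4% in the bin nearest to Gm8797 (log2 ratio 0.32), 89.3% in the Filip1l bin (0.28) and 75.3% in the Rpp21 bin (0.28). The median over all members was 36.7%. Over all members such a window did not go with a higher ratio. The 101 members with most of their fragments in 1 kb had a median log2 ratio of -0.09, with 12 above 0. The other 399 had a median of -0.07, with 99 above 0. Among the 10 lowest members, the Sfi1 bin (82.3%) and the Pde10a bin (53.3%) also had such a window.

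Only 4 of the 10 highest lacked this shape and were not the chr17 bin. The bin 67.2 kb from Cog6, a Golgi protein gene, had 47.7 young and 59.5 aged FPM (log2 ratio 0.32, 0.23 to 0.40). The bin 30.1 kb from Csrp1 had 57.8 and 69.5 (0.27, 0.19 to 0.35). The bin in Maml3, a Notch coactivator, had 47.4 and 55.7 (0.23, 0.15 to 0.32). The bin in Vmp1 that holds Mir21a had 92.2 and 108 (0.23, 0.17 to 0.29). In these 4 bins 26.1% to 37.5% of the young fragments lay in the densest 1 kb.

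**Figure D3:**
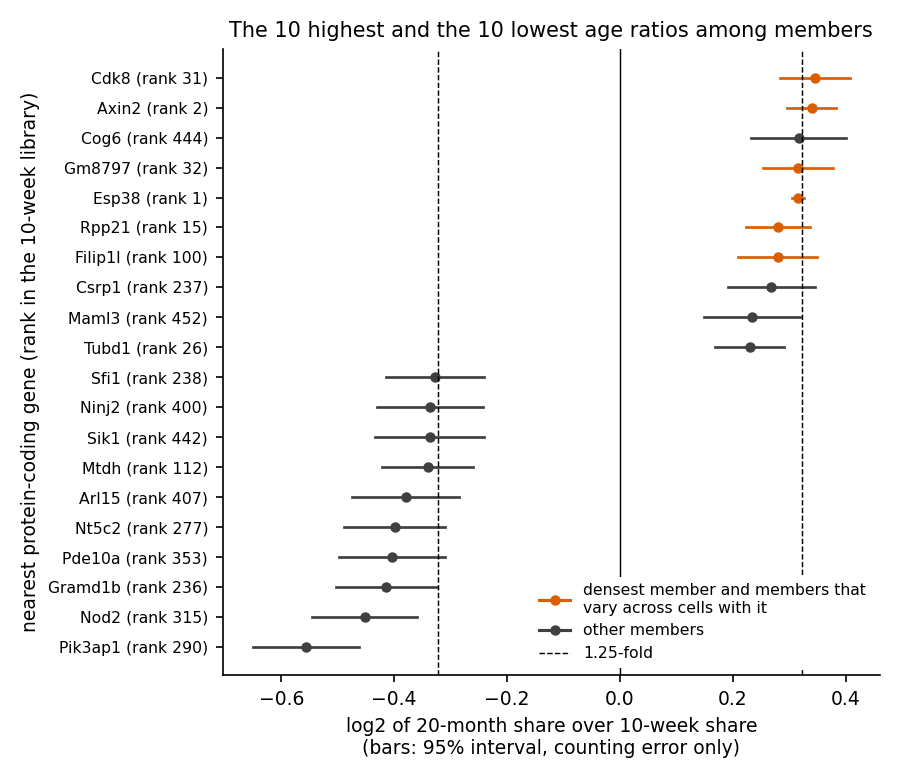
Points are the log2 ratios of 20-month to 10-week share (x) of the 10 highest and 10 lowest members, named by the nearest protein-coding gene and young rank (y), and bars are 95% exact binomial intervals for counting error. Orange marks the chr17 bin of rank 1 (nearest to Esp38) and the members that varied across cells with it, which make up 6 of the 10 highest and none of the 10 lowest.

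A small set of members varied from cell to cell together with the densest member, the chr17 bin that holds a ribosomal RNA gene. For each of the other 499 members, Pearson's r with the chr17 bin was taken across barcodes thinned to 5000 fragments, 4626 young and 3125 aged ones. The median r was -0.00300 (young) and -0.00333 (aged). The same 8 members exceeded 0.1 in each library, and no other member reached more than 0.0918 (young) or 0.0797 (aged). The limit of 0.1 was set after the values were seen. The correlation describes barcodes of 1 library, whose thinned counts share a fixed total.

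The strongest was the Axin2 bin, with r of 0.47 (young) and 0.55 (aged). The Cdk8 bin had 0.34 and 0.40, the Gm8797 bin 0.32 and 0.40, the Rpp21 bin 0.29 and 0.36, and the Filip1l bin 0.28 and 0.35. The bin in Zc3h7a on chromosome 16, nearest to Txndc11, had 0.19 and 0.24, the bin nearest to Cr2, a complement receptor gene, 0.17 and 0.19, and the Gm21060 bin 0.14 and 0.17. Among the next 500 bins, 0 exceeded 0.1 among young barcodes and 1 among aged ones.

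These 8 members differed from the other 491 in their age ratio as well, as a description with no test. Their median log2 ratio was 0.28 (range -0.06 to 0.35), with 6 of 8 above 0, against -0.08 (range -0.56 to 0.32) with 104 of 491 above 0. Both members at least 25% higher belonged to the 8, so without them and the chr17 bin 0 members were at least 25% higher and 11 at least 20% lower. Fragments shorter than the DNA around 1 nucleosome took a larger share in the aged library in 7 of the 8, and also in the chr17 bin (62.5% young, 65.1% aged), but in only 4 of the other 491. The cause of the shared variation was not tested. In the chr17 bin itself the number of fragments per thinned barcode had a variance 6.07 times (young) and 8.25 times (aged) its mean. The median over the other members was 1.03 and 1.02. Variance over mean rises with the mean count where cells differ. The chr17 bin held a mean of 14.8 (young) and 18.3 (aged) fragments per thinned barcode, far above any other member. Its values and those of the other members are thus not on an equal footing.

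**Figure D4:**
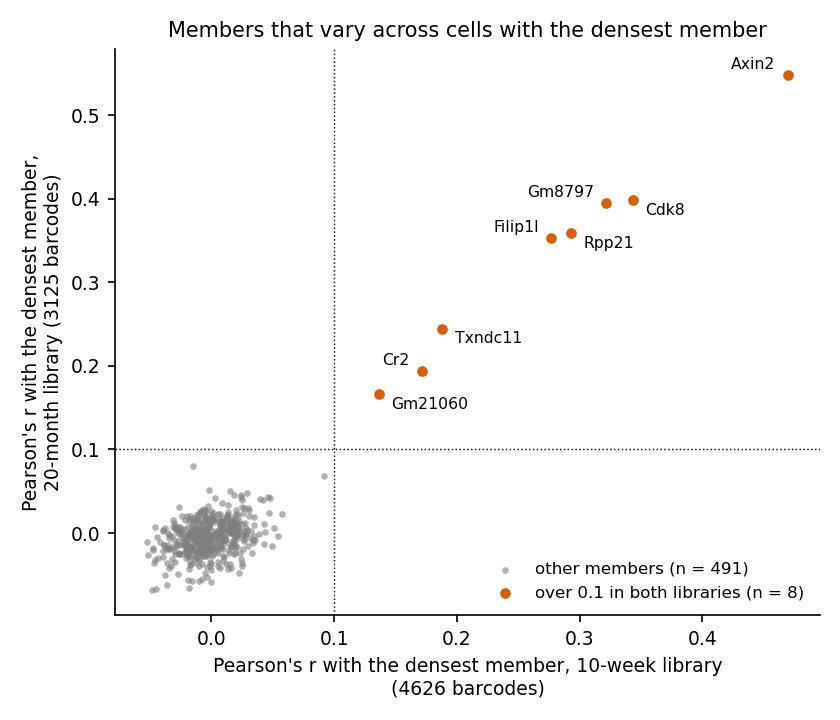
Each point is 1 of 499 members, placed by the Pearson correlation of its fragments per barcode with those of the chr17 bin in the 10-week (x) and the 20-month library (y), over 4626 and 3125 barcodes thinned to 5000 fragments. The 8 orange members, labelled by nearest gene, lie above 0.1 in both libraries, apart from the other 491.

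In 497 of 500 members (99.4%) most 31-base words of the densest 300 bp occurred once in the assembled chromosomes, close to the 99.8% of the next 500 bins and the 99.8% of the other distal bins with a mean of at least 1000 fragments. The 3 exceptions were the Gm8797, Filip1l and Txndc11 bins, with 54.1%, 60.4% and 91.1% of words in several copies, and all 3 were among the 8 members above. No other member shared most of its words with the chr17 bin, and none with the mitochondrial genome. The check covered only sequence present in the assembly and only exact matches. Copies that differ by a few bases can therefore count as single.

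Within a member, fragments were concentrated at 1 or a few points. The median member held 36.7% of its young and 35.2% of its aged fragments in its densest 1 kb (young range 12.3% to 99.4%), and 2 kb sufficed for 50% of the fragments in the median member. The median young share was slightly higher elsewhere. It was 38.8% in the next 500 bins, 39.4% in the other bins of at least 1000 fragments and 38.6% in the other bins of at least 200. In 101 members (20.2%) 1 kb held more than 50%. That was so in 25.8% of the next 500 bins, 29.5% of the other bins of at least 1000 fragments and 27.6% of the other bins of at least 200. The densest 1 kb was the same in both libraries in 467 members (93.4%). This was close to the 93.2% of the next 500 bins and the 92.03% of the other bins with a mean of at least 1000 fragments, and it was 88.9% in the other bins of at least 200. The 400 bp around the young peak held a median of 31.02% of young fragments (quartiles 24.0% and 39.5%) and 29.4% of aged fragments (22.1% and 37.3%). The peak was located on the young library, which favours the young value.

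**Figure D5:**
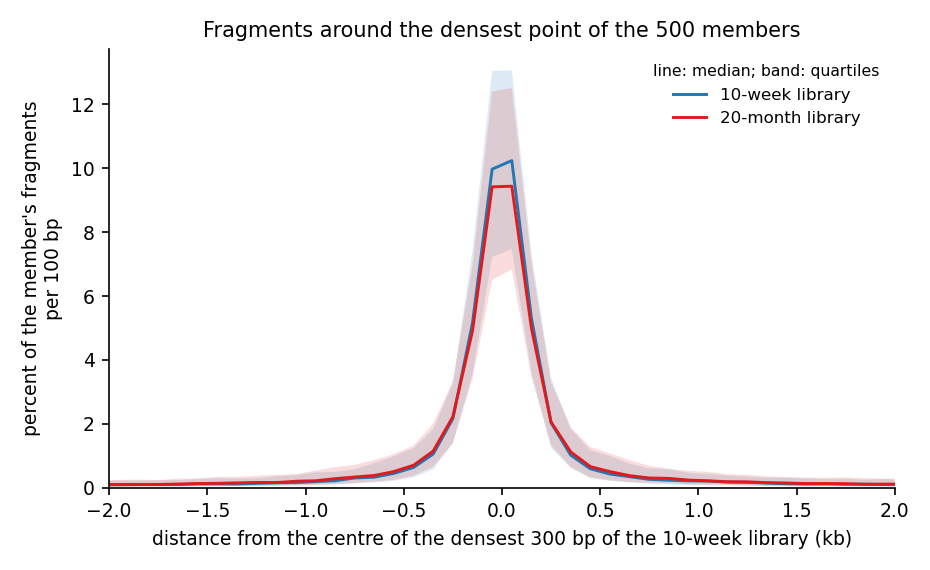
Median percent of a member's fragments per 100 bp (y) against the distance in kb from the centre of its densest 300 bp in the 10-week library (x), for both libraries over 500 members, with quartiles as bands. Each library peaks at the centre, at a median of 10.2% (young) and 9.44% (aged), and falls to between 1.02% and 1.15% at 350 bp on either side.

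Short fragments were common in members and in the next densest bins. Fragments shorter than the DNA around 1 nucleosome made up a median of 67.2% of a member's young fragments and 62.9% of its aged ones. The medians were 65.6% and 60.7% in the next 500 bins, and 64.04% and 58.99% in the bins of at least 1000 fragments that were not members. In the bins of at least 200 fragments that were not members they were 57.0% and 51.9%, and over all autosomal fragments the shares were 59.9% and 55.1%. The aged library thus held fewer short fragments genome-wide, and its part in the members' ratios was not tested. Bins chosen anew and scaled by short fragments alone had a median log2 ratio of -0.06, and those by longer fragments alone -0.05. These sets are not the members, so they do not give the members' own ratios by fragment length. The median share of G and C was 47.3% in members, 46.1% in the next 500 bins, 45.95% in the other bins of at least 1000 fragments and 44.1% in the other bins of at least 200.

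Single cells held members in similar numbers at both ages. A thinned barcode had a median of 168 fragments in members in the young library (5th to 95th percentile 136 to 203) and 165 (132 to 203) in the aged one. Without the chr17 bin the medians were 3.06% and 2.94% of a barcode's fragments, and the unthinned medians for all members were 324 and 356. A single member other than the chr17 bin had a fragment in a median of 24.5% of young and 23.8% of aged thinned barcodes, with ranges of 19.2% to 58.7% and 16.8% to 60.9%. The highest young value belonged to the Neat1 bin and the highest aged value to the Axin2 bin.

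Protein-coding genes held many of the members. The centre of 227 members (45.4%) fell within one and 276 (55.2%) overlapped one, against 50.7% and 56.4% of the other bins. The nearest coding start was at a median of 36.3 kb from the centre (range 15.03 to 388 kb). That median was 38.3 kb in the next 500 bins and 44.8 kb in the other bins of at least 200 fragments. More than 100 kb away lay 72 members (14.4%). The shares were 16.6% of the next 500 bins, 15.5% of the other bins of at least 1000 fragments and 22.6% of the other bins of at least 200. The median log2 ratio of these 72 members was -0.04, against -0.08 for the other 428, a difference that was not tested. A start of a gene of another type fell in 183 members (36.6%, against 32% of the next 500 bins, 28.1% of the other bins of at least 1000 fragments and 22.7% of the other bins of at least 200), among them, in GENCODE's terms, lincRNAs in 81 members, antisense RNAs in 25 and microRNAs in 19. The median log2 ratio was -0.08 both with such a start and without it. In 9 members (1.8%) RefSeq placed the start of a messenger RNA where GENCODE gives no start of a protein-coding transcript. This was near the 1.4% of the next 500 bins and the 1.43% of the other bins of at least 1000 fragments. It was 0.724% in the other bins of at least 200.

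Most members stood alone, and 429 different genes were nearest to them. They formed 462 separate stretches, of which 431 were a single bin. The 2 longest runs had 4 bins. One, 80 kb at chr6:31060001-31140000 near the transcription factor gene Klf14, begins with the bin of Mir29a and Mir29b-1 and had 223 young and 214 aged FPM. The other, at chr1:180360001-180440000 near Itpkb and Stum, had 219 and 215. Runs of 3 lay near Haao (238 and 237 FPM), within or near Zmiz1 (173 and 171) and near Msi2 (162 and 153). The 5 runs had log2 ratios from -0.08 to -0.01.

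For the 10 genes nearest to the most members, the log2 ratio of the summed shares ran from -0.20 to -0.00. Gse1, a chromatin-associated protein gene, was nearest to 6 members with 427 young and 418 aged FPM together, and Haao to 5 with 340 and 332. Zfp36l2, which encodes a protein that destabilises messenger RNAs, was nearest to 4 (252 and 248). Smad7, the inhibitory SMAD, was nearest to 4 (234 and 215), Klf14 to 4 (223 and 214) and Msi2, an RNA-binding protein of stem cells, to 4 (212 and 202). Meis1, a homeobox factor of HSCs, was nearest to 3 (195 and 194), Zmiz1 to 3 (173 and 171), Zfp608 to 3 (199 and 181) and Uaca to 3 (172 and 149). The lowest summed log2 ratios were those of Uaca (-0.20), Zfp608 (-0.14) and Smad7 (-0.12).

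A list of 36 HSC regulator genes, mostly transcription factors but including Msi2, had 23 members near 15 of its genes, 4 of them near Msi2. The 23 made up 4.6% of members, whereas 1.33% of the bins of at least 200 fragments lay near a gene of the list. The genes included Runx1, Erg, Fli1, Meis1, Lmo2, Gfi1 and Prdm16. The bins of at least 200 fragments were sparser, with a median of 465 young fragments against 2808 in members. No share among bins nearly as dense as the members was computed, here or for the lists below. The median log2 ratio of the 23 members was -0.04, with 7 above 0 and 0 past the limits of 25% higher or 20% lower. The bin in Fli1, an ETS factor, had 85.0 young and 80.2 aged FPM (log2 ratio -0.08, -0.15 to -0.02). Of the 3 bins of Meis1, the one 149 kb from its start had 84.2 and 94.8 (0.17, 0.11 to 0.23), whereas a bin within the gene had 62.8 and 54.5 (-0.21, -0.29 to -0.12) and another within it 47.8 and 45.2 (-0.08, -0.17 to 0.01). The bin in Erg, another ETS factor, had 68.7 and 64.6 (-0.09, -0.16 to -0.01), and the bin in Runx1, a master regulator of blood development, had 67.2 and 58.1 (-0.21, -0.29 to -0.13). The bins around Meis1 thus did not share a direction, and their summed shares were nearly equal at both ages.

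Immediate early genes, which respond to stimuli within minutes, had 10 members (2.0%, against 0.565% of the bins of at least 200 fragments). They lay near 6 of 26 genes, Fos, Egr1, Egr3, Ier5, Klf4 and Zfp36l2, with a median log2 ratio of -0.06. Of the 10, 4 were nearest to Zfp36l2. The 2 bins near Fos had 85.3 and 79.4, and 63.2 and 60.7 FPM. A bin near Zfp36l2 had 86.1 and 76.3 (log2 ratio -0.17, -0.24 to -0.11), while another had 67.8 and 71.1 (0.07, -0.01 to 0.14). Chromatin regulators had 9 members (1.8%, background 0.556%) near 6 of 22 genes, several of them within Arid1b. Examples had 78.4 and 78.1 FPM near Chd7, 70.7 and 67.0 within Arid1b, and 53.4 and 50.7 within the DNA methyltransferase gene Dnmt3a.

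Of 33 receptor and cytokine signalling genes, 4 had 1 member each (0.8%, background 0.570%). These were Kit, 155 kb from its bin, with 52.2 young and 46.6 aged FPM (log2 ratio -0.16, -0.25 to -0.08), Cxcr4 with 49.5 and 44.6 (-0.15, -0.24 to -0.06), Il6st with 51.8 and 47.6 (-0.12, -0.21 to -0.03) and Socs3 with 47.5 and 48.1. The bins nearest to Kit, the stem cell factor receptor, Cxcr4, the receptor that holds HSCs in the marrow, and Il6st were lower in the aged library by more than counting error. That was so on the scale of all autosomal fragments, and it was so for 238 of the 500 members. Of 29 adhesion, cytoskeleton and platelet genes, 4 had 5 members (1.0%, background 0.334%). The pair near the integrin gene Itga6 had 65.7 and 69.2, and 47.3 and 51.3, and the bin in Pecam1 had 46.7 and 39.1 (-0.25, -0.35 to -0.16). Actb had 75.5 and 75.2 and Myh9 46.4 and 45.2.

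Of 21 cell cycle and survival genes 2 had a member (0.4%, background 0.423%), the kinase gene Pim1 with 61.9 and 68.3 (0.14, 0.06 to 0.22) and Ccnd3 with 61.3 and 57.7 (-0.09, -0.17 to -0.01). Of 18 granulocyte and monocyte genes 1, Cebpb, had a member (0.2%, background 0.120%), with 96.1 and 91.3 FPM. The lists of 18 lymphoid and 14 erythroid genes had 0 members each, against 0.165% and 0.156% of the bins of at least 200 fragments. No member of any list was past the limits of 25% higher or 20% lower.

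MicroRNA genes of the RefSeq table lay in 16 members (3.2%, against 0.819% of the bins of at least 200 fragments that were not members). Of 25 hairpins in them, all 25 were matched to RefSeq mature sequences, 42 in number. The median log2 ratio of the 16 members was -0.05 (range -0.17 to 0.23). Mature microRNAs bind target messenger RNAs mainly through the seed, bases 2 to 8, which is in capitals below. Those of the densest microRNA members and of the families that share a seed within a member are shown.
miR-23a-3p: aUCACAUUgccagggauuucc
miR-27a-3p: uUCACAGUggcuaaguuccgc
miR-24-3p: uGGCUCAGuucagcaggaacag
miR-21a-5p: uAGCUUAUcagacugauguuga
miR-17-5p: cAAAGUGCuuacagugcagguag
miR-20a-5p: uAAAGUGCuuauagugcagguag
miR-19a-3p: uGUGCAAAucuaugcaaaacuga
miR-19b-3p: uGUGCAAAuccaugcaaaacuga
miR-29a-3p: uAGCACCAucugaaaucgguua
miR-29b-3p: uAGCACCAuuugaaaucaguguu
Of these, 3 pairs share a seed, miR-17-5p with miR-20a-5p, miR-19a-3p with miR-19b-3p, and miR-29a-3p with miR-29b-3p. The accessible region, and not the microRNA, was measured.

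The microRNA members differed in their ratio. The Mir23a cluster bin, at rank 4, had 124 and 110 FPM (log2 ratio -0.17, -0.23 to -0.12). The Mir21a bin had 92.2 and 108 and was the highest of the 16 (0.23, 0.17 to 0.29). The bin of the Mir17 cluster at chr14:115040001-115060000, which also holds Mir18, Mir19a, Mir20a, Mir19b-1 and Mir92-1, had 50.1 and 50.7 (0.02, -0.07 to 0.10). The bin of Mir29a and Mir29b-1 had 47.6 and 43.6 (-0.13, -0.22 to -0.04). The bins of Mir101a (61.0 and 62.8) and Mir193a (60.0 and 57.8) had intervals that included 0. The remaining 10 bins had log2 ratios from -0.12 to 0.04. The Mir23a and Mir21a bins thus moved in opposite directions, each by more than counting error.

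The densest 300 bp of members held some motif letters more often than other bins. The letters were searched on both strands in 500 members, in the next 500 bins and in all distal bins of at least 200 fragments. KLF/SP letters (GGGCGG) occurred in 29.4%, 19.4% and 10.4%, RUNX letters (TGTGGTT) in 20.8%, 15.8% and 14.97%, and ETS letters (AGGAAGT) in 28.8%, 26.2% and 24.9%. The cyclic AMP response element (CRE, TGACGTCA) occurred in 3.2%, 2.2% and 0.672%. The median share of G and C in these windows was 54.3% in members, 53% in the next 500 bins and 48.3% in all bins.

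E-box letters were more frequent in members than in all bins but not than in the next 500, and the other letters were about as frequent or rarer. CTCF matches occurred in 1.6% of members, 2.4% of the next bins and 7.52% of all, and IRF matches in 4.0%, 7.8% and 7.04%. GATA letters (AGATAA) occurred in 13.8%, 17.4% and 15.7%, AP-1 letters (TGANTCA) in 12.4%, 16.0% and 14.1%, and CEBP letters (TTGCNNAA) in 10.8%, 14.0% and 13.2%. MEIS letters (TGACAG) occurred in 23.6%, 22.6% and 22.5%, E-box letters (CAGCTG) in 25.8%, 26% and 20.6%, and MYB letters (AACTGNC) in 17.0%, 15.2% and 16.0%. PU.1 letters (GAGGAAGT), each of which contains the ETS letters, occurred in 10.6%, 10.0% and 9.85%, HOX letters (TGATTTAT) in 2.4%, 2.0% and 2.05%, and STAT letters (TTCCNGGAA) in 0.6%, 1.6% and 1.24%. The median log2 ratio of members with a motif lay between -0.10 and -0.05 for every motif but STAT, which had 3 members.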

How the data were processed

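The 2 scATAC-seq libraries were analysed, 1 of 10-week-old and 1 of 20-month-old HSCs. According to the study's methods, the authors ran Cell Ranger ATAC for alignment, barcode counting and peak calling against mm10, and then Signac. By default Cell Ranger ATAC also removes duplicates, shifts fragment ends for the transposase and calls cells. The study's own cell filter used combined peaks and further quality measures, which were not applied here, and it kept more cells of each age than were kept here. The deposited files hold whole-number counts per barcode and 1 line per unique fragment. Here, fragments were counted by their midpoint in 20-kb bins, with GENCODE M21 gene models and the RefSeq GRCm38.p6 sequence, the same assembly as mm10. Doublets were not called, and 12 young and 118 aged barcodes above 20000 peak fragments were left out, as were 129 and 171 below 3000. Shares were relative to all autosomal fragments, and log2 ratios used a pseudocount of 1 fragment. Ratio intervals were exact binomial at 95%, which is counting error only, and no p-value was computed. At the lowest member count the counting SD of a log2 ratio was 0.046. The ratio and word-count code was tested on simulated data.

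The members and gene lists were chosen with earlier results of these data known. Named were the 15 densest members, the 10 highest and 10 lowest ratios with intervals that leave out equality, the 5 members on each side of the limit, up to 4 examples per gene list, members with microRNA genes, the 5 longest runs and the 10 genes nearest to the most members. Members described for their variation across cells, the 2 bins within Meis1, the bin of Myh9, and Malat1, were named outside this rule and chosen after their values were seen. Some members of the gene lists are not reported here. In all, 22 alternative settings were tried. Python 3.11.15, numpy 2.4.6, pandas 2.3.3, scipy 1.17.1 and matplotlib 3.10.9 were used.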

Additional observations from a re-analysis of the deposited data

Results flagged for a closer look

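The X chromosome lay outside the choice of members. Of its 7127 distal bins, 5 reached the 2262 young fragments of the least dense member. They held 2420 to 3696 young and 1751 to 2677 aged fragments, and their log2 ratios ran from -0.16 to -0.06. Of these bins, 2 were adjacent, at chrX:50580001-50620000.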

How the results depend on the processing

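No paired analysis was possible because each age has 1 library. Of the 21 alternatives that bear on the median log2 ratio of the members (-0.08), none turned it positive, and 12 left it between -0.08 and -0.06. It became -0.042 scaled to in-peak fragments, -0.215 under TMM, -0.093 with all barcodes within the limits, -0.055 with short fragments, -0.047 with longer ones, -0.093 in 10-kb bins, -0.057 at 20 kb from coding starts, -0.044 when members were chosen by the 20-month library and -0.058 when chosen by the mean. The 2 members at least 25% higher became 0 under TMM, with all barcodes, without members with over 50% in 1 kb, at 1.5-fold and without the members that vary with the chr17 bin. They became 1 without noncoding starts, 4 with thinned barcodes, a shifted grid, 10-kb bins or 20 kb from coding starts, 5 scaled to in-peak fragments or chosen by the mean, 8 with short fragments or all gene starts excluded, 10 among 1000 members and 14 when chosen by the 20-month library. The 11 at least 20% lower became 6 scaled to in-peak fragments, 71 under TMM, 4 of 250 and 29 of 1000 members, 3 chosen by the 20-month library, 7 chosen by the mean or without noncoding starts, and 0 at 1.5-fold. The 442 members among the densest aged bins became 221 of 250, 871 of 1000 and 283 of 317 without noncoding starts, which follow from the number of bins taken. Settings that changed the barcodes, the fragments, the bins or the coding starts chose the members anew. The cause of the other changes was not tested. The 2 definitions of coding starts, and the setting without members that vary with the chr17 bin, were chosen after seeing the data.

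With 1 library per age, the spread between animals is unknown. Counting intervals are narrow at this depth and do not cover it. Selection on the 10-week count favours lower aged shares.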
